A study of Mus musculus with 72 samples.

Results

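Atf4 and 9 other genes of cellular stress responses were followed across 6 mouse melanoma lines given a receptor agonist, its antagonist, both or neither. The genes were Atf4, Atf3, Ddit3, Ddit4, Trib3, Chac1, Asns, Sesn2, Gdf15 and Txnip, taken by their symbols as 10 of the 50600 genes in the count table. ATF4 is a transcription factor whose messenger RNA is translated better when the initiation factor eIF2 is phosphorylated, an event set off by amino acid shortage, unfolded protein in the endoplasmic reticulum and other stresses. It pairs with C/EBP proteins on a composite DNA element and switches on genes of amino acid supply, such as Asns, together with regulators of the response itself, such as Ddit3 (CHOP) and Trib3. In melanoma the pathway is known for its links to nutrient limitation and to changes of cell state.

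The study asked what activation of the gastrin-releasing peptide receptor (GRPR), a G-protein-coupled receptor, does to gene expression in melanoma cells. All 6 lines came from mice in which NRAS with the Q61K change was driven in pigment cells by the tyrosinase promoter (Tyr::NRASQ61K/°). Lines 1057 and 1064, of female origin by their labels, also carried Cdkn2a-/-, the Tyr::CreA/° transgene and Cdh1dF/dF, and had their own Grpr expression. Line 1181, labelled male, carried Cdkn2a-/- and Cdh1dF/dF without a Cre transgene, and line 1014, labelled female, carried the NRAS transgene with no other listed allele. Lines 1181 and 1014 were each studied with Grpr and tGFP under the CMV promoter (1181-Grpr, 1014-Grpr) or with tGFP alone (1181-Ctrl, 1014-Ctrl), after selection of the transfected cells. After 18 h in 0.5% serum, cells received for 4 h mock treatment (0.1% DMSO), 10 nM of the agonist GRP, 1 µM of the antagonist RC (RC-3095), or GRP+RC, with 3 replicates in each of the 24 groups.

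The 72 libraries held 19512882 to 46862053 counted reads (median 28112904.5), so that 3 reads corresponded to at most 0.154 normalized counts on the CPM scale (counts scaled to library size). All 7 pigment cell markers (Mitf, Sox10, Pmel, Tyr, Tyrp1, Dct and Mlana) had a median of at least 1 CPM in every line, and the 3 keratinocyte markers together reached at most 1.47 CPM. Summed levels reached 35.1 CPM for 5 fibroblast markers (in 1064, and at most 7.29 CPM in the other lines), 55.7 CPM for 4 immune markers (in 1181-Ctrl) and 6.94 CPM for 3 endothelial markers (in 1057). Grpr lay at 167 to 247 CPM in 1057, 417 to 1130 CPM in 1064, 110 to 638 CPM in 1014-Grpr and 9.03 to 85.8 CPM in 1181-Grpr, and at no more than 0.101 CPM in the control lines, in each case apart from 2 libraries that went against their labels. The library labelled 1014-Ctrl mock replicate 2 held Grpr at 50.7 CPM and the Y-linked gene Ddx3y at 67.7 CPM, unlike the other 11 libraries of that line, and the library labelled 1181-Grpr GRP+RC replicate 2 held neither. The other 1181-Grpr libraries held both Ddx3y and Xist, the latter at 205 to 266 CPM, whereas 1181-Ctrl had at most 0.707 CPM of Xist. Despite the shared Cdh1dF/dF label, Cdh1 (E-cadherin) was at most 0.105 CPM in 1057 and 1064. Apart from the 2 libraries, it lay at 10.4 to 26.9 CPM in 1181-Grpr and 15.8 to 29.8 CPM in 1181-Ctrl. In 1014-Grpr it was at 0.708 to 3.22 CPM and in 1014-Ctrl at 1.95 to 5.37 CPM. Results that rest on either of these 2 libraries are given with and without it, except where stated. In these bulk cultures, more cells with a gene switched on and more RNA per cell cannot be told apart. The labels do not say that replicates were separate cultures, so that p-values measure the spread between these samples, which may be technical.

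Stretches of promoter are shown for the members in which a sequence search found the element bound by ATF4 and C/EBP proteins or the paired element bound by MondoA and ChREBP with MLX. The window ran from 250 bases before to 50 bases after each RefSeq start in GRCm38.p6, and all 10 members were matched by symbol. Both strands were searched for TGATGNAA (composite element), TGACGTCA (cyclic AMP element), TGANTCA (AP-1 element) and CACGNG followed after 5 bases by another CACGNG (carbohydrate response element), and capitals mark the match on the strand of the gene. Positions count from the RefSeq start.
Atf3: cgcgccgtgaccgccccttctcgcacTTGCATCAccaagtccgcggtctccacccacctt
Trib3: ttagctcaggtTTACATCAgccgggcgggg
Chac1: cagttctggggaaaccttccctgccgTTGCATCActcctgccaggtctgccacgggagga
Asns: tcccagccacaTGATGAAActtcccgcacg
Txnip: actgtgCACGAGGGCTGCACGAGcctccag

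The Atf3 stretch is chr1:191183410-191183469 on the minus strand, inside the annotated gene but in no exon, and holds the composite element on the reverse strand at -110 to -103. The Trib3 stretch, chr2:152344028-152344057 on the minus strand, has its last 5 bases in the first Trib3 exon of the GENCODE annotation, and the element, on the reverse strand at 15 to 22, lies before that exon. In Chac1, chr2:119351023-119351082 on the plus strand, the element lies in no annotated gene, on the reverse strand at -193 to -186. The Asns stretch, chr6:7693214-7693243 on the minus strand, holds it on the forward strand at -23 to -16, within an annotated Asns exon and outside the coding sequence. The composite element was thus found in 4 of 10 members and in 3.97% of the 32851 promoters searched. The Txnip stretch, chr3:96557866-96557895 on the plus strand, lies in an exon of the antisense gene Gm15441 and holds the paired element at -85 to -69, which 16 of all promoters (0.0487%) contained. The cyclic AMP element, in 1.79% of promoters, matched no member, and the AP-1 element, in 7.81%, matched Ddit3 alone, at -242 to -236.

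Reads could be shared with neighbouring genes for a pair of members. The antisense gene Gm15441 covers 19.4% of the Txnip exon bases. A second Ddit3 entry of the annotation, absent from the count table, covers 6.13% of Ddit3 on the same strand, and Mars covers 3.97% on the other strand. The kit was stranded, but the strand setting of the counting is not given in the sources used here, so that Ddit3 and Txnip counts are uncertain to an extent that was not measured. Gm15441 itself was counted at no more than 0.716 CPM in any library, and Mars at 69.7 to 215 CPM.

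Per unit of transcript length, Atf4 was the most abundant member. On the authors' scale of TPM (transcripts scaled to length and library size), the median level over the 72 libraries was 652 for Atf4, followed by 203 for Asns, which makes asparagine, and 121 for Ddit3, a transcription factor that favours cell death under lasting stress. Ddit4 (REDD1), a brake on the growth kinase mTORC1, had a median level of 80.7 TPM, and Sesn2, a leucine sensor that restrains the same kinase, 42.8 TPM. Median levels of 39 TPM for the pseudokinase Trib3, 37.3 TPM for Txnip, an arrestin-like protein that lowers glucose uptake, and 36.7 TPM for Atf3, an immediate-early and stress-induced transcription factor, lay close together. Chac1, which degrades glutathione, had 24.7 TPM, and Gdf15, a secreted stress hormone, 7.91 TPM with a range from 0 to 524 TPM.

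**Figure D1:**
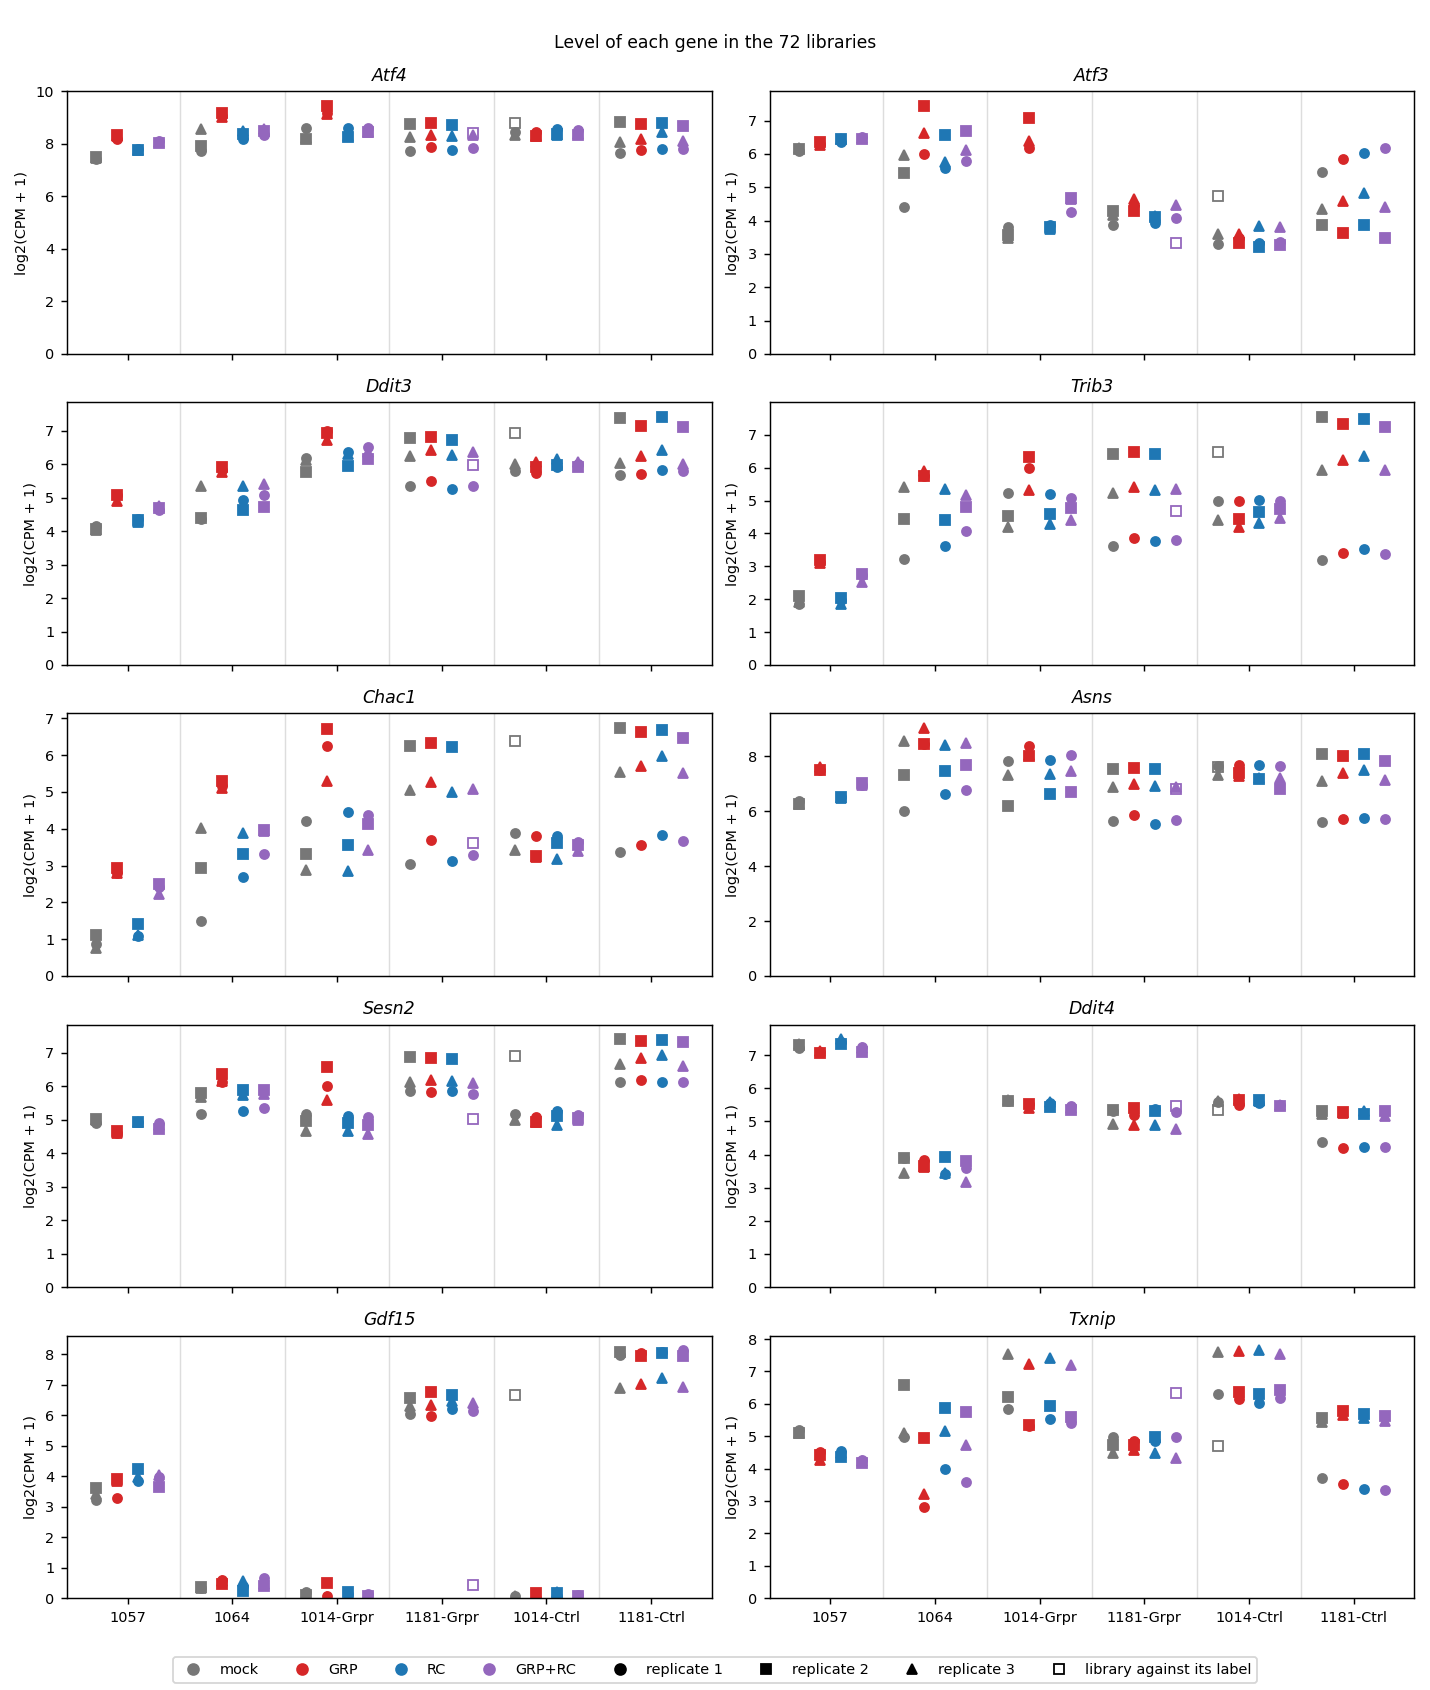
Level of each of the 10 genes in all 72 libraries, as log2(CPM + 1), by line and treatment (points are libraries, open squares are the 2 libraries that went against their labels). Gdf15 separates the lines, and Trib3, Chac1 and Asns spread widely among libraries of 1 treatment in 1064 and the 1181 lines but not in 1057.

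Resting levels, measured in the 18 mock libraries, differed between the lines for 8 of 10 members (edgeR quasi-likelihood F test, adjusted p under 0.05), as they did for 85.2% of the 15358 genes tested, so that the count of members is near the background. The test was fitted to these 18 libraries, and the CPM given for them were normalized across all 72 libraries. The exceptions were Atf4 (adjusted p = 0.174) and Asns (adjusted p = 0.393). Without replicate 3 of each line, 4 members passed, namely Atf3, Ddit3, Ddit4 and Gdf15.

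Gdf15 had the widest range at rest. It stood at 191 ± 74 CPM in 1181-Ctrl, 73.9 ± 13.6 CPM in 1181-Grpr, 10.8 ± 1.67 CPM in 1057, 0.296 ± 0.0222 CPM in 1064 and 0.0651 ± 0.0678 CPM in 1014-Grpr (SD, n = 3), the last below the level of 3 reads. In 1014-Ctrl it was at 0.0375 CPM without the library labelled mock replicate 2, which held 100.1 CPM on the scale of that line. Without that library every step in the order from 1181-Ctrl through 1181-Grpr and 1057 to 1064 passed the test, with log2 differences of 1.37, 2.77 and 5.20 (adjusted p = 0.0014, 4.67e-07 and 5.75e-08), whereas with it the adjusted p-values were 0.568, 0.0869 and 0.027. Gdf15 did not reach the count filter within either 1014 line and has no treatment test there.

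The steps between lines that follow are those without the library labelled 1014-Ctrl mock replicate 2, which shared its fit with all lines. Ddit4 was highest in 1057, at 174 ± 6.17 CPM, and the next line, 1014-Grpr with 47.7 ± 0.469 CPM, was lower by a log2 difference of 1.85 (adjusted p = 1.32e-06). It was lowest in 1064, at 14.3 ± 2.51 CPM, below 1181-Ctrl by a log2 difference of 1.01 (adjusted p = 0.0005), and its neighbours in between did not differ beyond their spread. Trib3 and Chac1 were lowest in 1057, at 3.23 ± 0.366 and 0.996 ± 0.275 CPM, and the step up to the next line was 2.93 for Trib3 (1014-Ctrl, adjusted p = 0.0185, and 3.78 with that library) and 3.17 for Chac1 (1064, adjusted p = 0.0143) in log2. In the other 5 lines neighbours in the order of Trib3 and of Chac1 did not differ beyond their spread, their highest means, 76.3 ± 82.2 and 48.2 ± 43.9 CPM in 1181-Ctrl, coming with SDs of about the same size. Atf3 was highest in 1057 (77.4 ± 1.65 CPM) and 1064 (46.9 ± 23.7 CPM), which did not differ beyond their spread, and 1064 was above 1181-Ctrl by a log2 difference of 1.04 (adjusted p = 0.0234, but 0.0528 with that library). For Ddit3, Sesn2, Txnip, Atf4 and Asns no neighbouring lines differed beyond their spread, although with that library Ddit3 was higher in 1014-Ctrl than in 1064, by a log2 difference of 1.36 (adjusted p = 0.0213).

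GRP raised a set of ATF4 pathway genes in line 1057. Chac1 rose 6.93-fold, Trib3 2.72-fold, Asns 2.37-fold, Ddit3 1.96-fold and Atf4 itself 1.75-fold, while Txnip, Sesn2 and Ddit4 fell. Of the 10 members, 9 passed the test at an adjusted p under 0.05, 6 higher and 3 lower with GRP, against 52.6% of the 14195 genes tested. Chac1, Trib3 and Asns, 3 of 10, also exceeded a 2-fold change, against 6.46% of all genes. The median log2 change was 0.56 over the members and -0.01 over all genes tested.

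In the 3 mock libraries Atf4 stood at 171, 182 and 177 CPM and in the 3 GRP libraries at 287, 323 and 317 CPM. The groups did not overlap, and the log2 change was 0.81 (SE 0.0404, adjusted p = 7.33e-12 by edgeR). Chac1 moved from 0.819, 1.17 and 0.689 to 5.93, 6.68 and 5.95 CPM, the lowest starting level of any line and the largest fold among the members of 1057 (log2 change 2.79, SE 0.168, adjusted p = 9.85e-11). Trib3, whose product restrains ATF4 activity, was at 2.65, 3.27 and 2.76 CPM in mock and 7.78, 8.21 and 7.58 CPM in GRP libraries. Asns was at 81.2, 75.3 and 76.3 against 181, 179 and 192 CPM. Ddit3 was at 17.0, 15.8 and 15.5 against 33.1, 32.8 and 28.9 CPM. For all 3 genes every GRP library was above every mock library. The share of all genes whose groups did not overlap was not counted, here or in the comparisons that follow. A lack of overlap therefore describes the single gene only.

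The remaining members of 1057 changed little or fell. Txnip fell from 35.6, 33.3 and 33.3 to 21.8, 20.6 and 18.3 CPM, with no overlap (log2 change -0.75, SE 0.061, adjusted p = 6.67e-09). Sesn2 fell from 28.8, 31.3 and 30.5 to 23.5, 24.0 and 23.0 CPM (log2 change -0.36, adjusted p = 7.26e-06). Both genes were lower in each GRP library than in any mock library, and so was Ddit4, by a log2 change of -0.20 (adjusted p = 0.000648). Atf3 was at 67.2, 69.8 and 71.0 CPM in mock and 77.1, 81.6 and 75.8 CPM in GRP libraries, a log2 change of 0.17 (adjusted p = 0.000812), small beside a mean resting level that was the highest of the lines. The groups of Gdf15 overlapped and its log2 change of 0.32 did not pass (adjusted p = 0.105). Grpr itself fell in 1057 with GRP, by 0.40 on the log2 scale.

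In 1014-Grpr, the line that received the receptor by transfection, Atf3 responded most. It stood at 13, 10.8 and 10.2 CPM in mock and at 72, 134 and 82.3 CPM in GRP libraries, a rise of 8.45-fold with no overlap (log2 change 3.08, SE 0.216, adjusted p = 2.02e-06). Chac1 rose 6.62-fold, Trib3 2.39-fold, Sesn2 2.27-fold, Atf4 1.88-fold and Ddit3 1.82-fold. Of 9 members tested, 6 passed, all of them higher with GRP, against 29.0% of the 13730 genes tested, and 4 exceeded 2-fold, against 4.01%. The median log2 change was 0.91 over the members and -0.02 over all genes. Grpr rose as well in this line, by a log2 change of 2.10, and whether its level had a part in the size of the members' changes was not tested.

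Replicates of 1014-Grpr differed in their starting level. Chac1 was at 17.4, 8.90 and 6.31 CPM in mock replicates 1, 2 and 3 and at 74.4, 105 and 38.7 CPM in the matching GRP libraries. Trib3 was at 36.5, 21.9 and 17.2 against 62.7, 79.8 and 39.2 CPM, and Sesn2 at 34.7, 30.3 and 24.4 against 62.9, 93.3 and 47.3 CPM. Replicate 2 had the highest GRP level of Chac1, Trib3 and Sesn2, as of Atf3. Atf4 was at 385, 294 and 298 against 583, 691 and 568 CPM. Ddit3 was at 72.3, 53.4 and 69.1 against 126, 122 and 106 CPM. In none of these 5 genes did the groups overlap, and the share of all genes without overlap was not counted. Leaving out replicate 2 left 4 members past the test and 1, Atf3, past 2-fold, beside 2202 and 410 of the 13743 genes tested. The log2 changes of Chac1 (2.23, adjusted p = 0.0546) and Trib3 (0.91, adjusted p = 0.199) then no longer passed. This fit did not use the replicate number, and both genes were higher with GRP in each same-numbered pair.

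Blocked on the replicate number, the fit passed all 9 members tested in 1014-Grpr, against 53.6% of genes. The additional members were Asns (log2 change 1.03, adjusted p = 8.49e-06), Txnip (-0.55, adjusted p = 1.84e-06) and Ddit4 (-0.16, adjusted p = 0.0136). Txnip was at 56.8, 73.1 and 184 CPM in mock and 39.0, 39.8 and 148 CPM in GRP libraries, lower in each of the 3 pairs while the groups overlapped, replicate 3 being the highest in both. Asns was at 227, 72.4 and 159 against 328, 258 and 261 CPM, higher in each pair.

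The response of 1014-Grpr was compared with that of 1014-Ctrl by the difference of their GRP effects. Members higher in 1014-Grpr numbered 6 of 9 (13.6% of 14204 genes differed), with log2 differences of 4.54 for Chac1, 3.66 for Atf3, 2.26 for Trib3, 2.20 for Sesn2, 1.28 for Ddit3 and 1.11 for Atf4 (adjusted p between 1.22e-05 and 0.0155). These sizes included the library labelled 1014-Ctrl mock replicate 2, in which Chac1 was at 81.9 CPM beside 13.8 and 9.71 CPM in its group. Without it the 6 genes still passed, at 2.97 for Chac1, 3.06 for Atf3, 1.41 for Trib3, 1.32 for Sesn2, 0.86 for Ddit3 and 0.98 for Atf4, of which the first 4 exceeded 2-fold. With that library left out and the block added, 8 of 9 passed (39.3% of genes), Asns at 0.95 and Txnip at -0.46 joining them. Without replicate 2 of both lines, Atf3 (2.61, adjusted p = 0.00042), Atf4 (0.78, adjusted p = 0.0239) and Ddit3 (0.70, adjusted p = 0.0277) passed, 1 of them past 2-fold. Chac1 (adjusted p = 0.0954), Trib3 (adjusted p = 0.397) and Sesn2 (adjusted p = 0.0782) did not. Of the 14205 genes in that fit 1253 passed, 299 of them past 2-fold.

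In 1064 these genes also stood higher with GRP, but mock libraries differed so much among themselves that the test without the block passed 1 of 10 members. Atf4 was at 213, 240 and 377 CPM in mock and 534, 573 and 526 CPM in GRP libraries (log2 change 0.97, SE 0.191, adjusted p = 0.0174), beside 6.38% of the 13794 genes tested. No member passed both thresholds by edgeR (2.32% of genes did), and 6 had an unadjusted p under 0.05. DESeq2 passed 5 members and called 3, beside 1679 and 491 of the 13794 genes. Without replicate 1, and again without replicate 2, 0 members passed (4 had an unadjusted p under 0.05 in each). In these 2 fits 0 of all genes passed as well, with 13857 and 13812 tested. Without replicate 3, Atf4 and Ddit3 exceeded 2-fold and passed (adjusted p = 0.0115 and 0.0125), as did 333 of 13804 genes. The median log2 change was 0.99 over the members and -0.02 over all genes.

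Trib3 shows the spread in 1064, with 8.24, 20.5 and 41.7 CPM in mock and 52.5, 52.9 and 58.9 CPM in GRP libraries. Chac1 was at 1.81, 6.70 and 15.3 against 34.5, 38.1 and 33.8 CPM. In both genes the mock libraries lay far apart and the GRP libraries close together, and the groups did not overlap. Atf3 was at 20.3, 42.5 and 61.3 against 63.0, 172 and 98.4 CPM. Asns was at 63.4, 159 and 375 against 345, 344 and 515 CPM, with overlap between the groups. Txnip was at 30.5, 95.4 and 33.6 against 5.98, 29.8 and 8.19 CPM, every GRP library below every mock library.

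Same-numbered libraries of 1064 deviated together, and the fit blocked on that number passed 8 of 10 members (43.5% of genes), of which 7 exceeded 2-fold (6.52% of genes did). The blocked log2 changes were 2.33 for Chac1 (SE 0.379, adjusted p = 0.000789), 1.46 for Trib3, 1.37 for Atf3, 1.35 for Asns, 1.18 for Ddit3, 1.01 for Atf4 and -1.98 for Txnip (SE 0.218, adjusted p = 0.00013). Sesn2 passed at 0.68 (adjusted p = 0.000239). Ddit4 and Gdf15 did not pass, and Gdf15 lay at 0.243 to 0.495 CPM in all 6 libraries of the comparison. Grpr was lower with GRP in this line, by 0.99 on the log2 scale in the blocked fit.

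**Figure D2:**
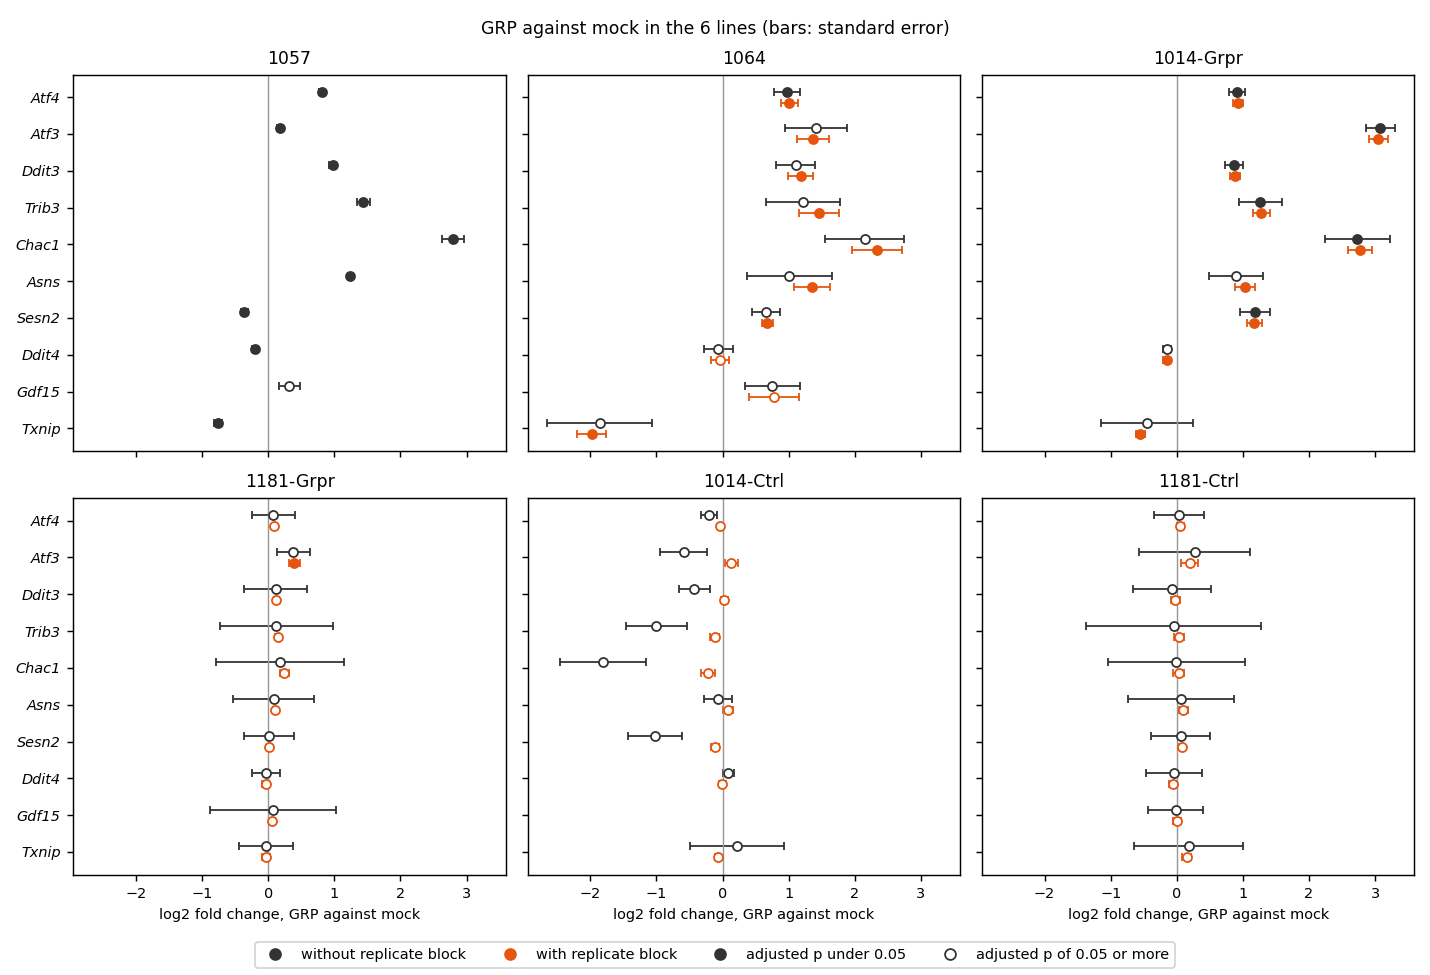
Log2 fold change of GRP against mock (points, with SE bars) for each member in each of the 6 lines, without the replicate block and with it (filled, adjusted p under 0.05), the latter not drawn for 1057 and drawn without the 2 libraries against their labels in 1181-Grpr and 1014-Ctrl. Chac1, Trib3, Atf4 and Ddit3 lie above 0 in 1057, 1064 and 1014-Grpr in every fit drawn, and in the 3 other lines the points with the block lie between -0.22 and 0.40.

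No member passed in 1181-Grpr, 1181-Ctrl or 1014-Ctrl by edgeR, in any of which 0 of all genes tested passed (percent called 0 in each). The members with an unadjusted p under 0.05 numbered 0, 0 and 2, and DESeq2 passed 0 members in each line. In 1014-Ctrl that number was 0 without the library that went against its label, and the median log2 change of the members went from -0.43 to -0.06. In 1181-Grpr, Trib3 was at 11.3, 84.5 and 36.8 CPM in mock and 13.7, 88.4 and 41.8 CPM in GRP libraries, and Atf4 at 211, 430 and 305 against 236, 440 and 323 CPM. Values followed the replicate number far more than the treatment. Atf3 was at 13.6, 18.4 and 16.9 against 21.0, 18.5 and 24.1 CPM. Without the library that went against its label and with the block, Atf3 passed in 1181-Grpr at a log2 change of 0.40 (SE 0.0805, adjusted p = 0.0199), as did 0.454% of genes. Members with an unadjusted p under 0.05 there numbered 6 of 10, beside 1407 of the 14770 genes. In that fit the largest change among the other members was 0.24, for Chac1 (SE 0.0667, adjusted p = 0.129), and Atf4 changed by 0.09 (SE 0.0248, adjusted p = 0.117). The GRP effects of 1181-Grpr and 1181-Ctrl did not differ for any member by edgeR (0 of all genes, percent called 0; 0 members at an unadjusted p under 0.05 and 0 by DESeq2). Without the library against its label, 0 of 10 members and 0 of the 15286 genes tested passed for this difference, with or without the block. The lines 1181-Grpr and 1181-Ctrl differed in more than Grpr and Xist. Without the library against its label, median Dct was 5640 CPM in 1181-Grpr and 244 CPM in 1181-Ctrl, and median Tyrp1 1330 and 1.4 CPM. Grpr in 1181-Grpr was at 19.0, 9.60 and 9.03 CPM in mock and at 85.8, 20.3 and 42.2 CPM in the matching GRP libraries. What part the level of Grpr and the differences between the lines had in this comparison was not tested.

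Among 1057, 1064 and 1014-Grpr, differences of the GRP effect were found for Atf3, Sesn2 and Txnip. Atf3 rose less in 1057 than in 1014-Grpr, by a log2 difference of -2.91 (SE 0.212, adjusted p = 2.02e-09), and Sesn2, which fell in 1057 and rose in 1014-Grpr, differed by -1.55 (adjusted p = 6.22e-05). These were the 2 of 10 members that passed, beside 15.1% of genes. Between 1057 and 1064, Sesn2 alone passed, at -1.02 (adjusted p = 0.0258; 1.30% of genes), and it passed without replicate 1 (-0.94, adjusted p = 0.0128) but not without replicate 2 (adjusted p = 0.19) or replicate 3 (adjusted p = 0.241). With the block, 3 members passed (16.6% of genes), namely Sesn2 at -1.04, Atf3 at -1.20 and Txnip at 1.21. Between 1064 and 1014-Grpr no member passed by edgeR (0.247% of genes; 1 member had an unadjusted p under 0.05, and 0 passed by DESeq2), whereas with the block Atf3 passed at -1.64 and Txnip at -1.36 (14.2% of genes). Chac1, Trib3, Atf4, Ddit3 and Asns did not pass in any of these pairs of lines, with or without the block. For Atf4 the difference of 1057 and 1014-Grpr was -0.12 with an SE of 0.134.

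In 1014-Grpr, 6 of 9 members were lower with GRP+RC than with GRP alone (11.8% of genes), and 4 of them by more than 2-fold (1.73% of genes). Atf3, at 72, 134 and 82.3 CPM with GRP, was at 18.0, 24.8 and 24.0 CPM with GRP+RC (log2 change -2.11, SE 0.206, adjusted p = 7.7e-05). Chac1 was at 19.9, 16.4 and 9.68 CPM with GRP+RC (log2 change -2.24, adjusted p = 0.0101). Sesn2 fell by 1.30, Trib3 by 1.19, Atf4 by 0.76 and Ddit3 by 0.54 on the log2 scale. No GRP+RC library reached the level of any GRP library in these 6 genes, and the share of all genes without overlap was not counted. Without replicate 2, Atf3 alone passed (-1.88, adjusted p = 0.00209), beside 480 of 13743 genes.

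Set against mock, GRP+RC left no member past the test in 1014-Grpr by edgeR (0.947% of genes; 3 members had an unadjusted p under 0.05 and 2 passed by DESeq2). With the block 4 passed (17.3% of genes), Atf3 at 0.97 (adjusted p = 0.000505), Ddit3 at 0.33, Txnip at -0.47 and Ddit4 at -0.24. The lowest GRP+RC level of Atf3, 18.0 CPM, was above its highest mock level, 13 CPM. RC alone passed no member in 1014-Grpr (0 at an unadjusted p under 0.05 and 0 by DESeq2). By either method 0 of the 13730 genes tested passed there.

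In 1064, 0 of 10 members differed between GRP+RC and GRP by edgeR without the block (0.0290% of genes; 4 members had an unadjusted p under 0.05 and 0 passed by DESeq2). With the block 7 passed (21.2% of genes) and 4 exceeded 2-fold (1.93% of genes), namely Chac1 at -1.56, Trib3 at -1.20, Asns at -1.05 and Txnip at 1.08. Trib3 was at 16.0, 26.8 and 34.9 CPM with GRP+RC, below all 3 GRP libraries. Txnip was at 10.9, 53 and 25.3 CPM, above its GRP level in each pair. Atf4 (-0.64), Ddit3 (-0.82) and Sesn2 (-0.56) passed as well. Against mock, neither RC nor GRP+RC passed a member in 1064 by edgeR, with or without the block, or by DESeq2. In each of these fits 0 of the 13794 genes tested passed, so that this is no result about the members. Members with an unadjusted p under 0.05 numbered 0 for both treatments without the block, and 2 for RC and 3 for GRP+RC with it.

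In 1057, most members differed from mock with GRP+RC, and members also changed with RC alone. GRP+RC differed from GRP for 8 of 10 members (24.7% of genes), 6 lower and 2 higher, none by 2-fold. Chac1 was at 4.31, 4.64 and 3.71 CPM with GRP+RC, between the mock and GRP levels (log2 change -0.55 against GRP, adjusted p = 0.00366), and Asns at 123, 130 and 121 CPM (-0.56, adjusted p = 3.92e-09). Trib3 fell by 0.54, Ddit3 by 0.34, Atf4 by 0.20 and Txnip by 0.20 on the log2 scale, whereas Atf3 (0.17) and Sesn2 (0.21) rose. Against mock, 9 of 10 members passed with GRP+RC (44.3% of genes), 7 higher and 2 lower, with Chac1 at a log2 change of 2.24. They were not all those that passed with GRP, since Gdf15 passed (0.52, adjusted p = 0.0116) and Ddit4 did not (adjusted p = 0.0513).

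RC alone passed 7 of 10 members in 1057 (24.3% of genes), none by 2-fold. Txnip fell to 22.1, 19.4 and 21.5 CPM (log2 change -0.70, adjusted p = 1.55e-07), close to its level with GRP, and was lowest with GRP+RC, at 18.1, 16.9 and 17.6 CPM. Gdf15 was at 13.4, 17.8 and 14.7 CPM with RC (0.66, adjusted p = 0.00439). Atf4 (0.32), Atf3 (0.29), Ddit3 (0.26), Asns (0.20) and Ddit4 (0.13) rose slightly. Trib3 did not, with 2.90, 3.09 and 2.58 CPM (log2 change -0.01, SE 0.123, adjusted p = 0.961).

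**Figure D3:**
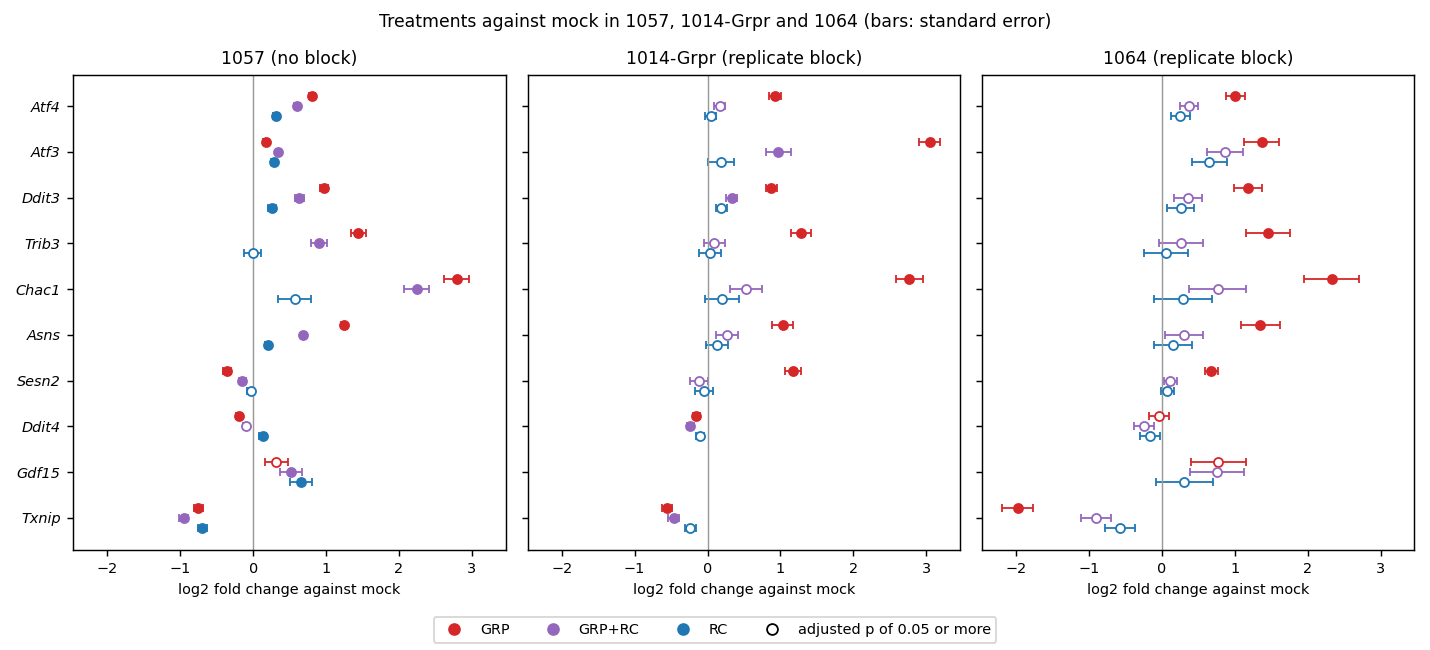
Log2 fold change against mock (points, with SE bars, filled where the adjusted p is under 0.05) of GRP, GRP+RC and RC for each member in 1057 (no block) and in 1014-Grpr and 1064 (replicate block). GRP+RC stands below GRP for Chac1, Trib3, Atf4 and Ddit3 in all 3 lines, and the Txnip point of RC alone is at -0.70 in 1057.

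The replicate number carried a large share of the members' spread. Outside 1057, libraries with the same number deviated together from the mean of their treatment group. In a test of the replicate number as a term beside treatment, added after the data had been seen and without the 2 libraries that went against their labels, 10 of 10 members passed in 1181-Ctrl (80.8% of genes) and in 1181-Grpr (71.7%), 9 of 10 in 1064 (70.6%), 8 of 9 in 1014-Grpr (55.3%) and 8 of 9 in 1014-Ctrl (46.5%). In 1057, 0 of 10 passed by edgeR (0 of all genes, percent called 0), and 3 had an unadjusted p under 0.05. The members' shares were above the background, which was itself high.

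In 1181-Ctrl the mean Trib3 level over the 4 treatments was 9.41 CPM in replicate 1, 168 CPM in replicate 2 and 68.6 CPM in replicate 3, a 17.8-fold range. Chac1 ranged 8.67-fold there. Atf3 ran the other way, at 59, 12.2 and 22.5 CPM in the same replicates. The 1181-Grpr line had the same order for Trib3, with 12.6, 85.8 and 39.4 CPM. In 1014-Grpr and 1014-Ctrl the replicate number showed most in Txnip, at 162 and 193 CPM in replicate 3 beside 45.6 to 81.4 CPM in the others. In 1064 Txnip was highest in replicate 2, at 58.8 CPM beside 15.5 and 25.4 CPM.

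**Figure D4:**
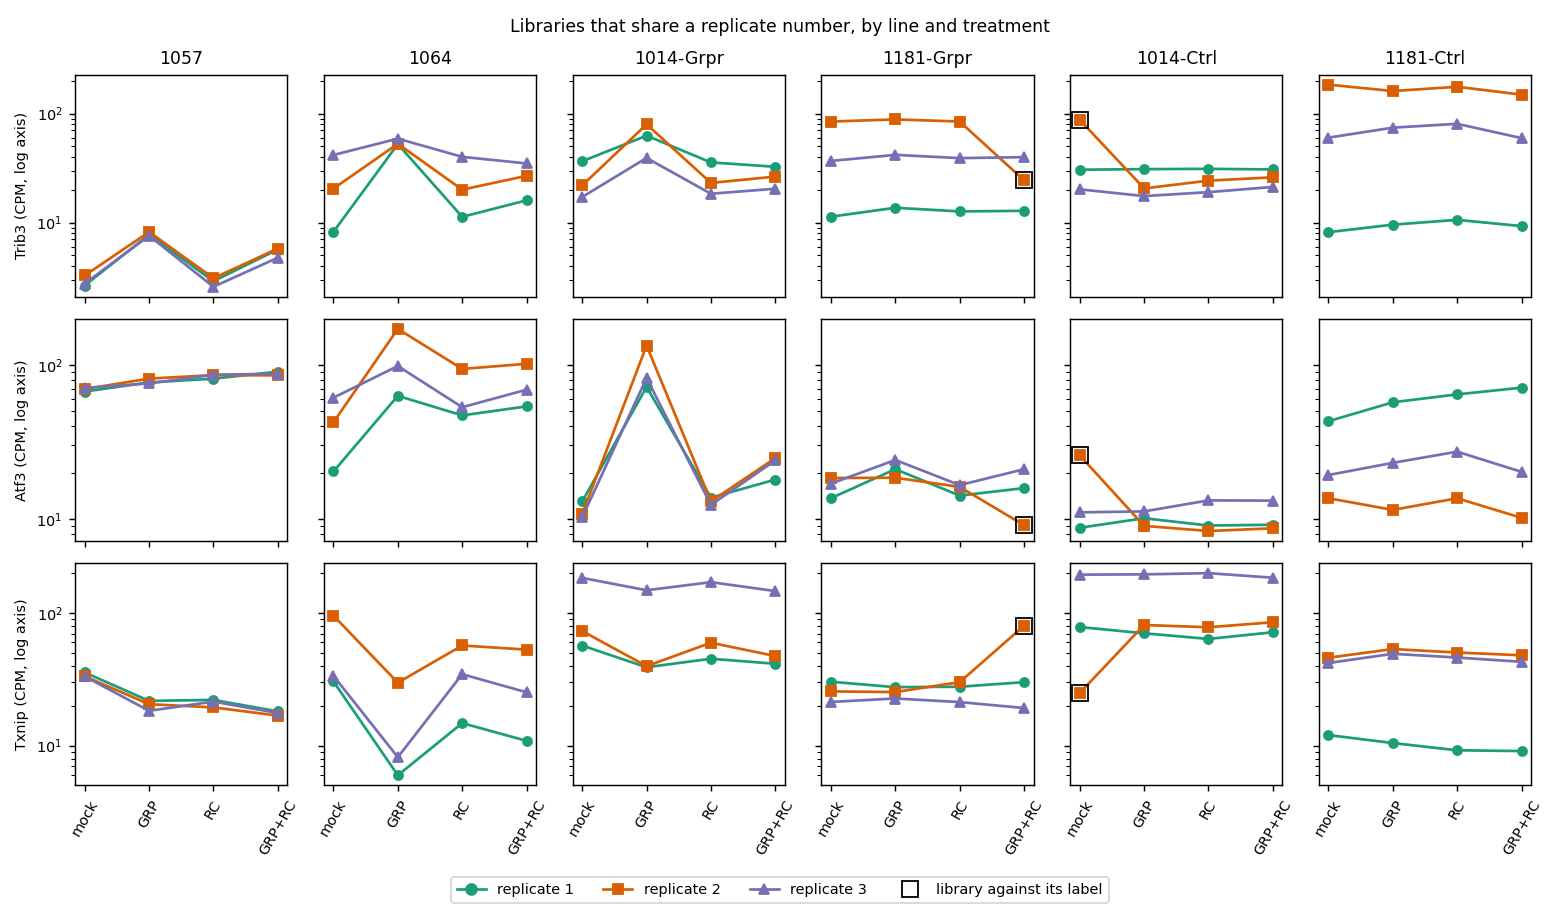
Trib3, Atf3 and Txnip in CPM (log axis) by line, treatment and replicate number, 1 point per library, with lines joining the same replicate number across treatments. The 3 lines of 1057 lie on each other, while in 1181-Ctrl the Trib3 levels of replicates 1 and 2 differ by 17.8-fold.

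As a description of how the genes moved together, deviations of log2(CPM + 1) from the group mean were correlated over the 70 libraries whose labels held. These points share lines and replicate numbers. Atf4, Ddit3, Trib3, Chac1, Asns and Sesn2 formed a group over these libraries, their 15 pairs having Pearson correlations of 0.757 to 0.971 with a median of 0.905. Ddit4 was more loosely tied to these 6 genes (0.281 to 0.573), and Txnip (0.237 to 0.362) and Gdf15 (0.0349 to 0.344) more loosely still. Atf3 had negative correlations with all 6, from -0.529 to -0.365. Correlations within a line varied. Atf3 with Trib3 was at -0.969 in 1181-Ctrl and 0.543 in 1064. Within the group of 6, Chac1 with Trib3 lay between 0.844 and 0.999 in the 6 lines, whereas Ddit3 with Trib3 was at -0.903 in 1014-Ctrl and -0.0556 in 1057, and Asns with Trib3 at -0.103 in 1057 and 0.413 in 1014-Grpr. Over the 36 pairs of the 9 members other than Gdf15 the median correlation was 0.503 in the 70 libraries and 0.392 in all 72.

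**Figure D5:**
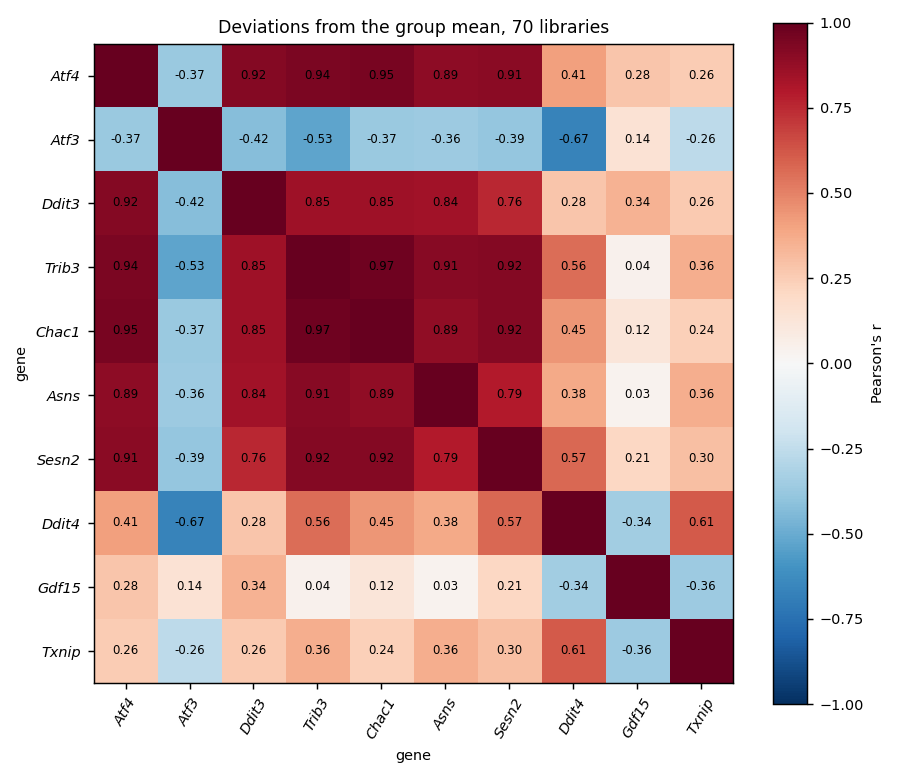
Pearson correlations between the 10 members of their deviations from group means, log2(CPM + 1), over 70 libraries. Atf4, Ddit3, Trib3, Chac1, Asns and Sesn2 form a block with correlations of 0.757 or more, and Atf3 is negative against each of them.

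Among 10515 genes with a mean of at least 5 CPM, the 5 outside the members that followed Trib3 most closely were Pck2, the mitochondrial enzyme that makes phosphoenolpyruvate (0.973), Aldh18a1 of proline synthesis (0.973), the neutral amino acid carrier Slc1a4 (0.967), the stress protein Nupr1 (0.964) and the lysosomal glucosidase Gaa (0.961). Txnip was followed most closely by its family member Arrdc4 (0.925), then by Mapk1ip1 (0.858), Alkbh5 (0.834), Fgf1 (0.829) and Pfdn5 (0.826).

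Other genes known as ATF4 targets were counted in the same fits, in which 52.6% of all genes passed in 1057, 29.0% in 1014-Grpr (53.6% with the block) and 6.38% in 1064 (43.5% with the block). Of 31 tested in 1057, 24 rose with GRP and 4 fell, with a median log2 change of 0.59, and the largest were Cebpb (2.10), Nupr1 (1.83), Eif4ebp1 (1.64), which encodes an inhibitor of cap-dependent translation, and Mthfd2 (1.56), a mitochondrial folate enzyme. In 1014-Grpr 14 of 31 rose and 0 fell (27 and 1 with the block), led by the cysteine-making enzyme Cth (2.09), the cystine carrier Slc7a11 (1.54), Slc1a4 (1.54) and Stc2 (1.50). In 1064 4 of 29 rose (22 with the block, among them Cth at 1.71, Mthfd2 at 1.63, Cebpb at 1.39 and Nupr1 at 1.28). All 12 aminoacyl-tRNA synthetases of the list, which charge tRNAs with amino acids, rose in 1057, with Cars at 1.10 and Nars at 0.97. In 1014-Grpr 9 of 12 rose and in 1064 0, whereas with the block all 12 rose in each. Of 14 genes of eIF2, its kinases, its phosphatase and its exchange factor, 8 rose and 2 fell in 1057, Eif2ak3 (the kinase PERK) at 0.40 and Eif2ak2 (PKR) at -0.44.

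Genes of the other arms of the unfolded protein response rose with GRP too in 1057 and 1064, and in 1014-Grpr mostly in the blocked fit. All 21 endoplasmic reticulum chaperones and ATF6 or XBP1 targets tested in 1057 rose with GRP, with a median log2 change of 1.14, led by Creld2 (2.06), Manf (1.74), the chaperone Hspa5 (1.72) and Sdf2l1 (1.65). In 1064 15 of 21 rose (20 with the block). In 1014-Grpr 5 of 22 rose (20 with the block), where 29.0% of all genes passed (53.6% with the block). Their median was 0.43, with Atf6 at 1.14 and Ern1 (IRE1) at 0.87 among them. Without the block that count is no result about the list. Whether these list medians differ between lines was not tested.

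Lists tied to Txnip, Ddit4, Sesn2 and Atf3 gave mixed counts, which with 52.6% of all genes passing in 1057 and 29.0% in 1014-Grpr are no results about these lists. Of 10 genes around TXNIP and the glucose sensor MondoA, 6 rose and 3 fell in 1057, the glucose carrier Slc2a3 rising by 1.54 and Arrdc4 falling by 0.89 on the log2 scale. In the blocked fit of 1064 Slc2a3 rose by 1.70 and Arrdc4 fell by 1.14. Among 13 genes of the REDD1 and sestrin arm to mTORC1, 3 rose and 7 fell in 1057, Sesn1 changing by -0.60, and in 1014-Grpr 1 of 12 rose and 3 fell, Sesn3 changing by -0.89. Of 16 p53 targets 4 rose and 6 fell in 1057. In 1014-Grpr 6 of 14 rose and 2 fell, with Plk2 (2.33), Cdkn1a (2.27) and Btg2 (2.26) rising and Trp53inp1 falling by 1.20. Among 9 Tribbles and other ATF genes, 5 rose and 3 fell in 1057 (Crem at 1.66) and 4 rose in 1014-Grpr (Trib1 at 1.25). NRF2 targets rose in 3 and fell in 4 of 10 cases in 1057 and rose in 5 of 10 in 1014-Grpr (Srxn1 at 1.14 and 1.54). Of 10 heat shock genes, 7 rose in 1057 and 4 in 1014-Grpr, none by 2-fold. Of 4 immune markers 2 were tested, and Cd68, a lysosomal protein best known from macrophages, rose by 1.99 in 1057, 1.33 in 1014-Grpr and 0.82 in the blocked fit of 1064. The 4 markers together lay at 24.7 to 30.2 CPM in 1057, 3.35 to 10.2 CPM in 1014-Grpr and 8.37 to 28.7 CPM in 1064, while Ptprc, which defines leukocytes, was at no more than 0.308 CPM in any library of the 3 lines. The part of Cd68-expressing cells in the members' changes was not tested.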

How the data were processed

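RNA was measured in 72 libraries of mouse melanoma lines, prepared with a stranded polyA kit and grouped by the labels' line, treatment and replicate number. Reads were aligned to mm10 (GRCm38.p5, GENCODE) with STAR, and the notes also name FastQC 0.11.5. The authors deposited raw counts per gene, without normalization, which entered all tests. The authors also deposited TPM, values scaled to transcript length and library size, used only to set genes beside each other. In the 1057 columns a decimal comma was read as a point. Symbols were found for 99.6% of genes in GENCODE.

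Counts were tested with edgeR 4.0.16 (R 4.3.3; filterByExpr, TMM, quasi-likelihood, Benjamini-Hochberg adjustment over all genes tested), with 1 fit per line over its 4 treatments and joint fits for differences between lines and for mock libraries. A member passed at an adjusted p under 0.05 and was called, or past 2-fold, with an absolute log2 change above 1 as well. CPM are TMM-scaled within a line, except that resting levels and cell type markers are scaled over all 72 libraries. SE is the log2 change divided by the root of F. The procedure was tested on simulated data. DESeq2 1.42.0, RLE scaling, no count filter, a replicate block, leaving out replicates and leaving out the 2 libraries against their labels were alternatives. Fits with a replicate number left out had no block. A count of 3 is the floor and covers counting error only, and the least different pair of replicates had a chi-square per degree of freedom of 2.556, so that none counted as duplicates. Replicate numbers were taken to pair libraries where every same-number correlation of deviations exceeded 0.1: the lowest was -0.439 in 1057 (not paired), 0.701 in 1064, 0.587 in 1014-Grpr, 0.901 in 1181-Ctrl, and 0.662 in 1181-Grpr and 0.62 in 1014-Ctrl without the 2 libraries (-0.0559 and 0.0558 with them). Members, lists and tests were chosen with earlier results of these data known. All members are named, with at most 4 passing genes per other list and comparison, by size of change, and the 5 genes most like Trib3 and Txnip.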

Additional observations from a re-analysis of the deposited data

Results flagged for a closer look

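The effect of GRP differed between lines, by the test of the difference itself, for these members and pairs of lines. Between 1014-Grpr and 1014-Ctrl the log2 differences were 3.66 for Atf3, 4.54 for Chac1, 2.26 for Trib3, 2.2 for Sesn2, 1.28 for Ddit3 and 1.11 for Atf4. Without the library labelled 1014-Ctrl mock replicate 2 they were 3.06, 2.97, 1.41, 1.32, 0.86 and 0.98 in the same order. Between 1057 and 1014-Grpr they were -2.91 for Atf3 and -1.55 for Sesn2, and between 1057 and 1064 -1.02 for Sesn2. Groups of 3 libraries were not examined for single outlying libraries.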

How the results depend on the processing

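Counts of members called (adjusted p under 0.05 and past 2-fold) changed with the processing as follows, and the cause was not tested. For GRP against mock in 1064, the count of 0 became 3 with DESeq2, 1 with RLE scaling, 2 without the count filter, 7 with the replicate block and 1 by adjusted p alone, and ranged from 0 to 2 when a replicate was left out. Of all genes, 320 of 13794 were called without the block, 491 with DESeq2, 320 with RLE scaling and 900 with the block. Without the count filter 317 of 25290 were called, by adjusted p alone 880 passed, and leaving out a replicate gave 0 to 333. By adjusted p alone the counts in 1057 were 9 for GRP against mock, 7 for RC against mock, 9 for GRP+RC against mock and 8 for GRP+RC against GRP. Of the 14195 genes tested 7462, 3448, 6282 and 3501 passed, in the same order. Leaving out a replicate gave 1 to 5 members for GRP against mock and 1 to 4 for GRP+RC against GRP in 1014-Grpr, 1 to 6 for the difference of 1014-Grpr and 1014-Ctrl, 0 for that of 1057 and 1064, and 4 to 7 for members differing between resting lines. Of all genes, 410 to 526, 136 to 191, 280 to 335 and 24 to 43 were called in the first 4 of these. The replicate block gave 4 for GRP+RC against GRP in 1064, 3 for the difference of 1057 and 1064 and 2 for that of 1064 and 1014-Grpr. Of all genes, 266, 371 and 294 were called with the block, in the same order. In 1057 the numbers share no pairing, and the block changed no count of members called. The median co-variation of the members, 0.503, was 0.392 over all 72 libraries. Of the member results that passed, the direction turned for the resting difference of Gdf15 between 1064 and 1014-Ctrl alone, from -6.74 to 2.80 without the 2 libraries against their labels and to 2.76 without replicate 2. For single members, DESeq2 gained 6 and lost 1 of the passed results, RLE scaling gained 1, no filter gained 11 and the block gained 29, while leaving out replicate 1, 2 or 3 lost 6, 16 and 7 and gained 2, 1 and 2. With the block, the genes passing for GRP against mock rose from 880 to 6006 in 1064 and from 3986 to 7366 in 1014-Grpr.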
